A study of Mus musculus with 12 samples.

Results

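The collagen genes of mouse liver tumors were followed here across 2 models and 2 diets. They were chosen by symbol alone, as every counted gene named Col, a number, a, and a number. This gave 44 of the 24062 genes in the count tables, and Col4a3bp, which is no collagen, fell outside the rule. By class they were 11 fibrillar, 6 basement membrane, 6 beaded filament and 9 FACIT members, 2 multiplexins, 3 network-forming and 4 transmembrane members, and 3 anchoring or unclassified members.

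All livers came from FVB male mice with LAP-tTA and TRE-MYC (MYC-ON), also those on the control diet. A liver-specific promoter drives tTA and so the MYC transgene, which lies on the Y chromosome and was switched on when doxycycline was withdrawn at birth. The xenografts were HCC53N cells, 1 line of mouse liver cancer cells without p53 and with mutant Nras, grown under the skin of NOD SCID mice (labelled NOD-SKID), which lack mature B and T cells but keep stroma and innate immune cells. The study's methods name female hosts and repeats in males, and do not say which were sequenced. The labels also call the tumor cells FVB MYC ON, and whether they carry the transgene was not settled here. In each model 3 mice received the control diet and 3 the No-Trp diet, which holds no tryptophan, for 21 days. The labels give no age for the diet groups, and the study's text names a day of sacrifice for MYC-ON mice fed these diets without tying the sequenced livers to it. Cells and host are both mouse, so tumor and host transcripts cannot be told apart in the xenografts.

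Values are CPM, read counts scaled to a common library size with TMM factors, which correct for differences in composition between libraries. They are given in the order 101, 102, 103 for control livers, 105, 107, 108 for No-Trp livers, 40, 41, 43 for control xenografts and 35, 36, 37 for No-Trp xenografts. Reads counted on genes ranged from 14660963 to 26085349 per library. Of the ribosomal RNA gene Rn45s, liver 101 held 12.1% of its reads, liver 102 2.22% and no other library over 0.758%. The counts of livers 101 and 108 and xenografts 41 and 43 carry resub in their names, taken here as a mark of resubmission. Those of xenograft 40 were named in another pattern than the rest. What either naming means is not stated. The liver label was checked on 9 hepatocyte markers (Alb, Ahsg and others), which summed to between 13111 and 148540.0 CPM in the livers and between 627 and 2433 CPM in the xenografts.

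Collagens are built from 3 chains wound into a triple helix, held by a repeat of glycine and 2 other residues. Fibrillar collagens form the cables of interstitial matrix, type IV collagens form the sheet of basement membranes, and the other classes decorate, anchor or link these to cells. In liver, stellate cells are the main source of fibrillar collagen in fibrosis, sinusoids lack a typical basement membrane, and collagen XVIII, the precursor of endostatin, is made by hepatocytes.

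The coding sequences of GENCODE M21 were read for this repeat and for their tryptophan codons. In the longest coding sequence of each gene, glycine codons recurred in steps of 3 codons for a median of 338 steps without a break in the 11 fibrillar members, against 2 steps over 20952 protein-coding genes. Short coding sequences, and those without an ATG start or whole codons, were left out of these genes. The tryptophan codon TGG stood at a median of 4.07 per 1000 codons in the 44 collagens and at 11.1 per 1000 over the same 20952 genes. The lowest were Col9a3, with no TGG in 680 codons, and Col8a1, with 1 in 744, and the highest were Col26a1, with 5 in 440, and Col18a1, with 20 in 1774. Col11a2 held 3 in 1736. Both multiplexins stood above the collagen median, at 7.32 per 1000 in Col15a1 and 11.3 in Col18a1.

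Per kilobase of exon, which allows levels of different genes to be compared, Col18a1 had the highest mean of the collagens in 3 of the 4 groups. It stood at 77.9 ± 31.0 CPM per kb in control livers, 183 ± 89.8 in No-Trp livers, 123 ± 17.4 in control xenografts and 89.8 ± 5.71 in No-Trp xenografts (SD, n = 3). In the control xenografts Col1a1 (104 ± 65.9) and Col3a1 (92.4 ± 68.5) came next, and their SDs spanned the mean of Col18a1. In the No-Trp xenografts Col1a1 (132 ± 78.2) and Col3a1 (128 ± 99.2) had higher means, but their SDs spanned that of Col18a1. The next places in control livers went to Col4a1 (34.3 ± 3.53), Col3a1 (29.6 ± 2.04) and Col1a1 (28.704 ± 3.0005), the last pair within 1 SD of each other. Exon lengths were the union of all annotated exons of a gene, which lowers genes with long exons that are rarely used.

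**Figure D1:**
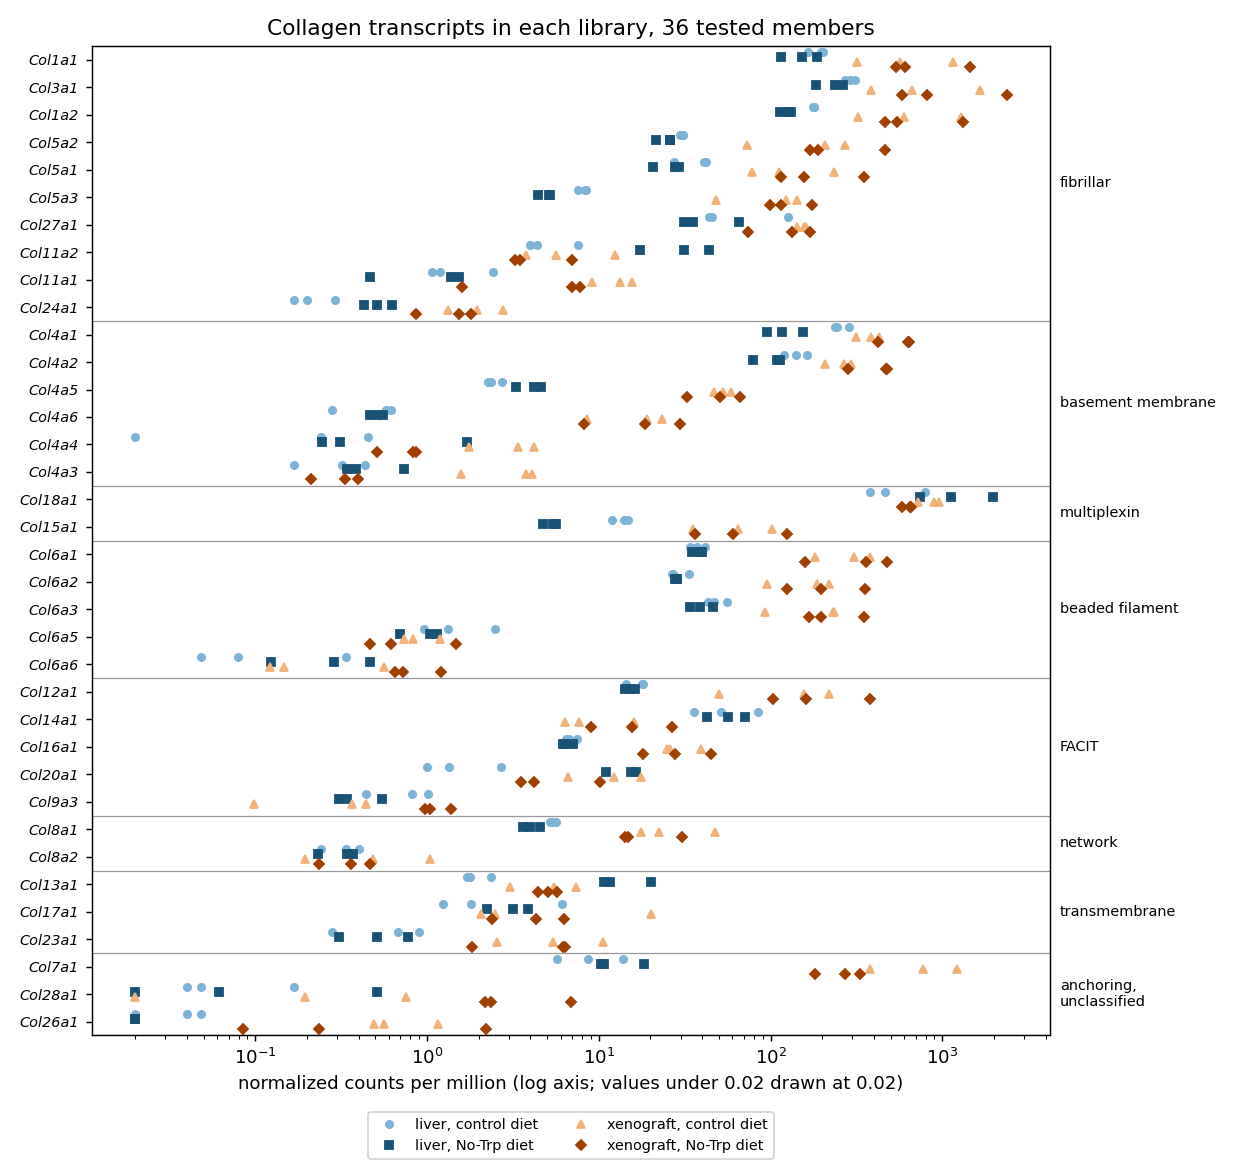
Normalized CPM (log axis) of the 36 collagens tested over all libraries, 1 row per gene and 1 symbol per library, grouped by class. In most rows the xenografts lie to the right of the livers, while Col14a1 and, on the No-Trp diet, Col11a2, Col13a1, Col18a1 and Col20a1 lie to the left.

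The first comparison asked how the No-Trp diet changed collagen transcripts in MYC-ON livers. Calls required both an adjusted p of 0.05 or less and a log2 fold change of 1 or more in size. Of 28 members with enough reads, 3 rose and 2 fell. Those that rose were Col20a1, Col13a1 and Col11a2, low collagens of 3 different classes, and those that fell were Col4a1 and Col15a1, both of basement membrane zones. Over all 14122 genes tested, 9.28% rose and 7.27% fell, so shares of 10.7% and 7.14% of the collagens are close to the background and say nothing particular to collagens as a group. The median log2 fold change was -0.28 over these 28 collagens and -0.003 over all genes (edgeR, two-sided, here and below). When libraries were scaled by their totals alone, the median of all genes was -0.30 and calls over all genes changed from 1311 higher and 1026 lower to 732 and 1532, while collagen calls stayed at 3 and 2.

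In bulk tissue, fewer cells of a type and less RNA per cell cannot be told apart. Groups of 3 mice did not overlap for 12 of the 28 members (42.9%), 4 of them higher with the No-Trp diet and 8 lower, against 48.6% of all genes tested. These 4 were Col20a1, Col13a1, Col11a2 and Col4a5, and the 8 were Col15a1, Col4a1, Col4a2, Col1a2, Col3a1, Col5a2, Col5a3 and Col8a1.

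Col20a1 encodes a FACIT chain, a class that lies on the surface of fibrils with interrupted helices. Its level was 1.35, 2.705 and 0.998 CPM in control livers and 10.98, 16.5 and 15.5 CPM in No-Trp livers. Every No-Trp liver lay above every control liver, and the fitted log2 fold change was 3.12 ± 0.42 (SE), an 8.68-fold rise (adjusted p = 0.0138). Counts were 25 to 48 reads per control liver and 192 to 269 per No-Trp liver.

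Col13a1 encodes a transmembrane collagen of cell adhesion sites. It was measured at 1.79, 2.37 and 1.72 CPM on the control diet and at 10.7, 20.1 and 11.6 CPM on the No-Trp diet in livers. The groups did not overlap, and the rise was 7.32-fold (log2 fold change 2.87 ± 0.35, adjusted p = 0.0127). Col17a1, a transmembrane collagen of hemidesmosomes in epithelia, had 6.08, 1.80 and 1.24 CPM in control livers and 2.23, 3.87 and 3.19 CPM in No-Trp livers, ranges that overlap (log2 fold change 0.05 ± 0.61, adjusted p = 0.962).

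Col11a2 encodes a minor fibrillar chain best known from cartilage, where it joins Col11a1 and a Col2a1 product in type XI collagen. It stood at 3.96, 7.61 and 4.35 CPM in control livers and at 17.4, 31.5 and 43.9 CPM in No-Trp livers, a 5.91-fold rise without overlap (log2 fold change 2.56 ± 0.41, adjusted p = 0.0171). Neither partner was called. Col11a1 had 2.41, 1.07 and 1.20 CPM on the control diet and 1.37, 1.54 and 0.466 CPM on the No-Trp diet (log2 fold change -0.43 ± 0.55, adjusted p = 0.577), and Col2a1 held at most 8 reads in any library. Of the 6 cartilage markers, 2 could be tested in livers and none was called, with summed levels of 2.56 to 4.45 CPM in control and 3.26 to 3.998 CPM in No-Trp livers.

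The sequences before the annotated starts of these 3 genes are shown because the genes rose together. Each is the 250 bases upstream of a RefSeq start on build GRCm38.p6, and capitals mark a match on either strand. The motifs searched were the TATA box as TATAAA, the CCAAT box as CCAAT, the GC box as GGGCGG and the E-box as CACGTG, of which the GC box reads CCGCCC on the other strand.
Col11a2 (chr17:34038888-34039137, plus strand): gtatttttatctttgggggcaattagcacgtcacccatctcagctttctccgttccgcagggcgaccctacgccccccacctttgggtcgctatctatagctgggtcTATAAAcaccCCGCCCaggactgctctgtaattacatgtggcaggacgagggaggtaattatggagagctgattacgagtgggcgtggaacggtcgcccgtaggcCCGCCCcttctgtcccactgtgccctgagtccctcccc
Col13a1 (chr10:61979109-61979358, minus strand): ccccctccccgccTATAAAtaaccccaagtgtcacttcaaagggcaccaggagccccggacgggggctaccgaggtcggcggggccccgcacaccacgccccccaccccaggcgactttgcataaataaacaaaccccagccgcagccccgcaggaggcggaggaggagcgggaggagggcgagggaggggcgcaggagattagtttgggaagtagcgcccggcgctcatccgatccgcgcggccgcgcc
Col20a1 (chr2:180986285-180986534, plus strand): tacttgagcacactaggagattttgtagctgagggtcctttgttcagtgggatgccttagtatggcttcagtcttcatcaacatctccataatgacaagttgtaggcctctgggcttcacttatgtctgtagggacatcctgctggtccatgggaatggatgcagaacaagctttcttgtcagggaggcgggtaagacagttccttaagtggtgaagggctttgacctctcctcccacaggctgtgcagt
No motif of the 4 was shared by all 3. Col11a2 held TATAAA 143 bases before the start and CCGCCC at 133 and 38 bases, Col13a1 held TATAAA 237 bases before it, and Col20a1 held none. The motifs do not overlap one another. Over 32851 promoters, TATAAA stood in 12.4%, CCAAT in 33.8%, GGGCGG in 32.7% and CACGTG in 6.02%, and over 38 promoters of 35 collagen genes in 13.2%, 34.2%, 57.9% and 0.0%. Promoters of the remaining collagens were not analysed here.

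Col4a1 and Col4a2 encode the chains of the common type IV collagen of nearly all basement membranes, and they lie head to head on chromosome 8. In annotation they share 22 transcribed bases, with first bases at 11312826 on the minus strand for Col4a1 and at 11312805 on the plus strand for Col4a2. Reads in that short overlap cannot be assigned by gene without strand, and the strand setting is not given in the sources used here. The same limit holds for Col18a1, which overlaps Slc19a1, and for Col9a3, which overlaps Tcfl5, both on the other strand. How many of their reads this touches was not measured. The CCAAT motif, in capitals, stood 145 bases before the start of Col4a1 and 32 bases before that of Col4a2, shown here with flanks.
Col4a1 (chr8:11312954-11312983, minus strand): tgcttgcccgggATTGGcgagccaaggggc
Col4a2 (chr8:11312761-11312790, plus strand): ccgaggagctccCCAATttgttggcgctgc
GGGCGG stood 192 and 48 bases before the start of Col4a2 and nowhere in the window of Col4a1.

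Col4a1 measured 245, 237 and 286 CPM in control livers and 155, 117 and 95.2 CPM in No-Trp livers. All No-Trp livers lay below all controls, and the fall was 2.07-fold (log2 fold change -1.05 ± 0.22, adjusted p = 0.0224). Col4a2 had 120, 140 and 164 CPM on the control diet and 113, 109 and 78.8 CPM on the No-Trp diet. Its groups did not overlap either, but the difference did not pass the test (log2 fold change -0.48 ± 0.20, adjusted p = 0.115). Whether the 2 transcripts differed in their response was not tested.

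Of the other type IV chains, Col4a5, part of specialized basement membranes, had 2.75, 2.25 and 2.36 CPM in control livers and 3.32, 4.18 and 4.59 CPM in No-Trp livers (log2 fold change 0.73 ± 0.28, adjusted p = 0.0969). Its X-linked neighbor Col4a6, 1308 bases away and read in the opposite direction, had 0.579, 0.620 and 0.280 CPM in control and 0.515, 0.554 and 0.466 CPM in No-Trp livers. Col4a3 had 0.434, 0.169 and 0.319 CPM and then 0.343, 0.738 and 0.389 CPM, and Col4a4 had 0.241, 0.451 and 0.00 CPM and then 1.72, 0.246 and 0.311 CPM. These last 3 had too few reads for the test in livers.

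Col15a1 encodes a multiplexin at the seam between basement membrane and fibrils. It stood at 11.9, 14.7 and 14.1 CPM in control livers and 5.66, 5.41 and 4.74 CPM in No-Trp livers, a tight fall of 2.54-fold without overlap (log2 fold change -1.34 ± 0.22, adjusted p = 0.0173). Its upstream window, shown as that of a member that fell, held none of the 4 motifs.
Col15a1 (chr4:47207762-47208011, plus strand): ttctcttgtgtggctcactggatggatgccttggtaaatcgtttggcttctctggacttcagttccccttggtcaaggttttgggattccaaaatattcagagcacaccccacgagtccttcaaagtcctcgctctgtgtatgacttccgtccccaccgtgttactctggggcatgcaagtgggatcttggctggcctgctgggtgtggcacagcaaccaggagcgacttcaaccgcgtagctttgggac

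The other multiplexin, Col18a1, had a higher mean on the No-Trp diet. It was counted at 381, 793 and 466 CPM on the control diet and 1129, 1974 and 742 CPM on the No-Trp diet. No-Trp liver 108 lay below control liver 102, so the groups overlapped, and the difference did not pass the test (log2 fold change 1.25 ± 0.44, adjusted p = 0.0725), though it did without liver 102 (1.60, adjusted p = 0.034), with resubmission as a covariate (1.21, adjusted p = 0.0385), with DESeq2 and in 1 fit over all libraries. The 9 hepatocyte markers moved in the same mice. Their sum was 15445, 45196 and 13111 CPM in control and 71720.0, 148540.0 and 57708 CPM in No-Trp livers, 5 of the 9 rose and none fell, and liver 102 and liver 107 were highest within their groups for both. The part of hepatocyte content in the Col18a1 values was not tested.

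**Figure D2:**
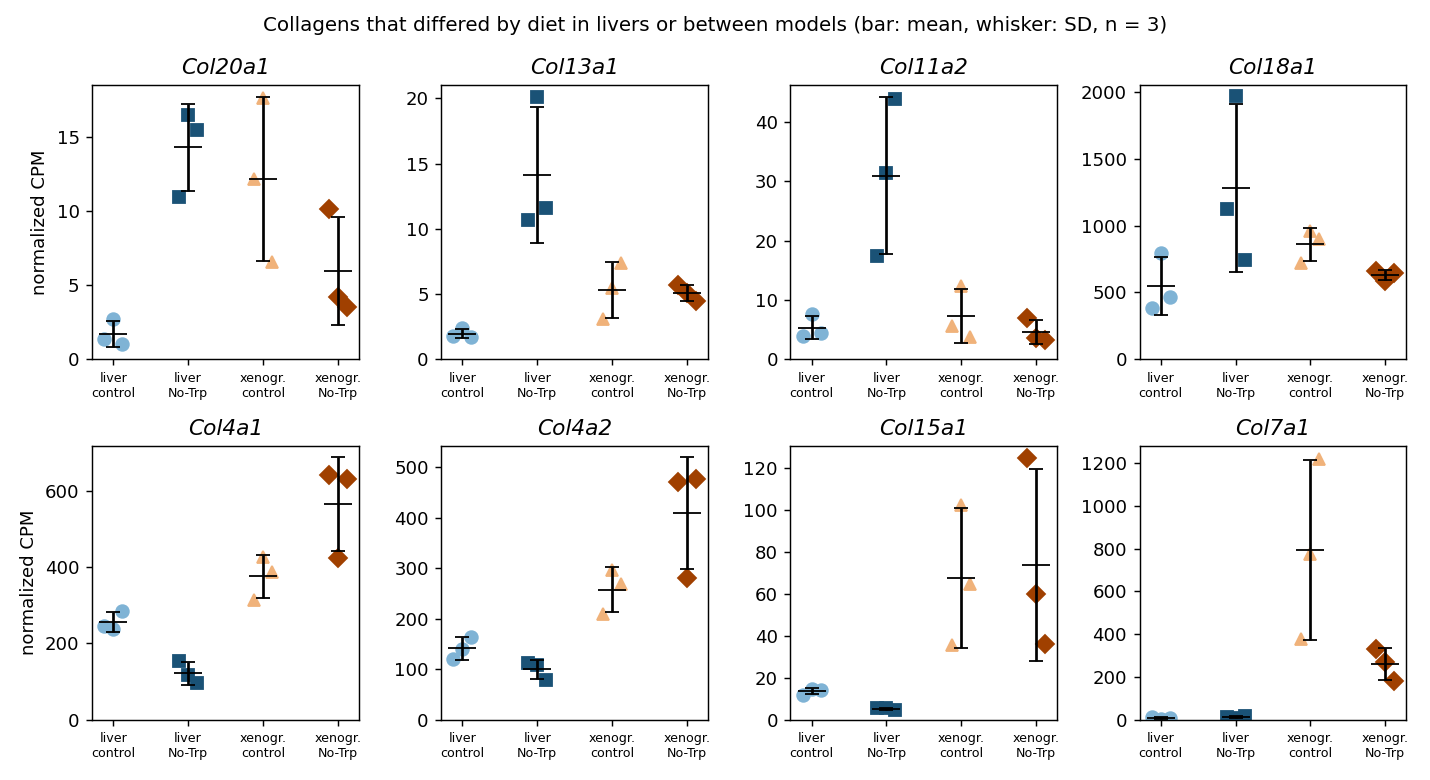
Normalized CPM of 8 collagens by mouse, with the mean (bar) and SD (whisker) of 3 mice in each group and a linear axis from 0. Col20a1, Col13a1 and Col11a2 stand higher and Col4a1 and Col15a1 lower in every No-Trp liver than in any control liver, and Col7a1 is near 0 in livers beside xenografts.

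The abundant fibrillar collagens were not called between diets in livers. Of 9 fibrillar members tested, 8 had a negative log2 fold change, between -0.70 and -0.29, and none of these 8 was called. Col1a1 stood at 166, 203 and 197 CPM in control and 153, 186 and 115 CPM in No-Trp livers, with overlap (log2 fold change -0.30 ± 0.21, adjusted p = 0.321). Col3a1, which forms type III fibrils, had 271, 311 and 291 CPM and then 237, 264 and 185 CPM (log2 fold change -0.33 ± 0.19, adjusted p = 0.227). Its groups did not overlap, by a margin smaller than the spread within the No-Trp group.

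Col1a2, the partner of Col1a1 in type I collagen, had the smallest spread of the 3. It had 176, 178 and 180 CPM in control livers and 127, 131 and 114 CPM in No-Trp livers. Its log2 fold change of -0.51 ± 0.14 passed the adjusted p (0.0388) but not the fold threshold. The summed level of all 11 fibrillar members per kb was 87.8 ± 9.16 in control and 70.7 ± 8.72 in No-Trp livers, and that of the 6 basement membrane members was 56.1 ± 6.50 and 32.3 ± 6.55 (CPM per kb, SD, n = 3).

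Beaded filament collagens, which form microfibrils around cells, gave no call in the livers. Col6a1 had 37.2, 34.1 and 41.8 CPM on the control diet and 40.0, 35.1 and 39.2 CPM on the No-Trp diet (log2 fold change 0.03 ± 0.16, adjusted p = 0.896). Col6a2 had 26.6, 27.2 and 33.5 CPM and then 28.7, 28.7 and 27.9 CPM. Col6a3 had 46.7, 43.3 and 55.8 CPM and then 46.6, 33.8 and 39.1 CPM. Both overlapped between diets, and of 4 members tested none was called.

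Col12a1 and Col14a1, FACIT chains found with type I fibrils, had log2 fold changes of -0.13 ± 0.19 and 0.00 ± 0.33. Their control livers held 17.9, 14.5 and 18.01 CPM of Col12a1 and 35.9, 84.9 and 51.3 CPM of Col14a1. The No-Trp livers held 14.2, 15.2 and 16.2 CPM and 71.0, 56.2 and 42.7 CPM, so both overlapped. Col9a3, a cartilage FACIT chain, had 0.820, 1.014 and 0.439 CPM and then 0.343, 0.308 and 0.544 CPM, which is 5 to 18 reads per liver (log2 fold change -0.90 ± 0.51, adjusted p = 0.218). Its partners Col9a1 and Col9a2 held at most 3 reads in any liver.

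Col8a1, a network-forming chain of vessel walls, had 5.65, 5.18 and 5.35 CPM on the control diet and 4.52, 3.63 and 3.96 CPM on the No-Trp diet in livers (log2 fold change -0.40 ± 0.24, adjusted p = 0.251). Col8a2 had 0.241, 0.338 and 0.399 CPM and then 0.343, 0.369 and 0.233 CPM. Col7a1, the anchoring fibril collagen of skin, had 13.8, 5.69 and 8.71 CPM and then 10.8, 10.3 and 18.3 CPM, with overlap (log2 fold change 0.49 ± 0.39, adjusted p = 0.371).

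All 5 liver calls rest on control liver 103. Without it none of the 5 was called, with adjusted p between 0.0833 and 0.0905 and log2 fold changes of 2.83, 2.77, 2.42, -1.33 and -0.97 for Col20a1, Col13a1, Col11a2, Col15a1 and Col4a1. The loss was not limited to collagens, since the calls over all genes went from 2337 to 8. Without liver 101 Col11a2 (adjusted p = 0.0554) and Col4a1 (0.0611) were lost, so that 3 members were called. Without No-Trp liver 105 the call of Col15a1 was lost, and without No-Trp liver 108 that of Col4a1.

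Within the livers marked as resubmitted, 1 per diet, and within the other 4, 2 per diet, the log2 ratios of the 5 members had the same sign. They were 3.42 and 2.83 for Col20a1, 2.63 and 2.86 for Col13a1, 3.44 and 2.01 for Col11a2, -1.31 and -1.36 for Col15a1, and -1.36 and -0.95 for Col4a1.

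Genes that act with collagens were called in both directions in livers, and each count below stands against the 9.28% of all genes that rose and the 7.27% that fell. Of 19 chaperones and modifying enzymes, 2 rose and 1 fell. P4hb, a subunit of prolyl hydroxylase that also serves as protein disulfide isomerase, rose by 1.22 on the log2 scale (adjusted p = 0.0305), from 1042 to 2394 CPM in the means. Serpinh1, the collagen-specific chaperone HSP47, fell by 1.62 (adjusted p = 0.0293), from 301 to 97.2 CPM. The third call was Mia3, a cargo receptor for procollagen, which rose by 1.14 (adjusted p = 0.0326).

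Among 11 procollagen proteinases and crosslinking enzymes tested, Bmp1, which removes the carboxyl propeptide, rose by 2.03 (adjusted p = 0.0276) and Loxl2, a lysyl oxidase, fell by 1.23 (adjusted p = 0.0355). Of 15 basement membrane partners, 2 fell and 1 rose. Nid2, a nidogen that links laminin to type IV collagen, fell by 1.4997 on the log2 scale (adjusted p = 0.0196), and Lamc1, the common laminin gamma chain, fell by 1.15 (adjusted p = 0.022), while Lamb3 rose by 1.35 (adjusted p = 0.0429).

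Of 18 interstitial matrix partners, Dcn, the proteoglycan decorin, rose by 1.91 (adjusted p = 0.0163), and the other 17 were not called. Fn1, the most abundant of them, had a log2 fold change of 1.26 (adjusted p = 0.122). Of 9 collagen receptors tested 1 was called, Itga1, an integrin chain, which rose by 1.02 (adjusted p = 0.0379). Of 12 members of the TGF-beta axis 1 was called, the ligand Tgfb2, which fell by 1.49 (adjusted p = 0.0231).

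Markers of cell types also moved in the livers. Of 12 stellate cell markers, 8 rose and none fell, with a median log2 fold change of 1.79. Their sum was 94.2 to 166 CPM in control and 272 to 386 CPM in No-Trp livers, and none of the 12 was at 0 in all libraries. Angptl6 rose by 2.68 (adjusted p = 0.0171) and Lhx2 by 2.49 (adjusted p = 0.0264), and Pdgfrb had a log2 fold change of -0.24 (adjusted p = 0.452). Col1a1, Col1a2 and Col3a1 were not called beside them.

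Of 12 fibroblast and myofibroblast markers, Pdgfra rose by 1.27 (adjusted p = 0.0196) and Acta2, the smooth muscle actin of myofibroblasts, fell by 1.68 (adjusted p = 0.0163), with sums of 67.7 to 102 CPM in control and 54.4 to 70.3 CPM in No-Trp livers. Of 12 endothelial markers, 2 rose and none fell, with sums of 174 to 288 CPM and 291 to 439 CPM. Of 7 smooth muscle and pericyte markers tested, 1 rose and 2 fell, with sums of 82.5 to 97.5 CPM and 73.7 to 111 CPM.

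Of 8 proliferation markers, 7 fell, and their sums went from 1416 to 1595 CPM in control livers to 154 to 484 CPM in No-Trp livers. None of 10 macrophage and none of 7 cholangiocyte markers was called. Sums of the macrophage markers were 614 to 820 CPM and 472 to 936 CPM, and those of the cholangiocyte markers 112 to 177 CPM and 154 to 193 CPM. Of 8 adipocyte markers 4 could be tested, of which 2 rose and 1 fell, and the sums of all 8 were 43.4 to 56.3 CPM and 62.0 to 106 CPM. The part of cell composition in the collagen values was not tested.

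The same diet comparison in the xenografts gave no collagen call with edgeR as used throughout. Of 36 members tested, none rose and none fell, against 0.36% of 14704 genes called in either direction, and 9 of the 36 had an unadjusted p under 0.05. DESeq2 called 4 of 44 members, with Col28a1 higher and Col4a3, Col4a4 and Col7a1 lower. Over all 19524 genes it called 250 higher and 130 lower. Col4a3 was also called lower by edgeR with RLE factors (the scaling of DESeq2), with no filter on low counts, with Rn45s left out and in 1 fit over all libraries, and without tumor 40, where Col7a1 was called lower as well. Groups did not overlap for 8 of 36 members (22.2%), against 22.6% of all genes tested. The median log2 fold change was 0.085 over the collagens and -0.004 over all genes. The collagen median was -0.25 without tumor 35, -0.132 without tumor 40, 0.327 without tumor 36 and 0.857 with resubmission as a covariate, so its sign rests on single tumors.

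The fibrillar collagens varied widely among tumors on the same diet. Col1a1 stood at 318, 1160.3 and 567 CPM in control tumors 40, 41 and 43 and at 1458, 537 and 604 CPM in No-Trp tumors 35, 36 and 37 (log2 fold change 0.33 ± 0.55, adjusted p = 0.808). Col3a1 had 387, 1666 and 668 CPM and then 2371, 580 and 813 CPM (0.45 ± 0.68, adjusted p = 0.782). Col1a2 had 323, 1287 and 601 CPM and then 1326, 462 and 543 CPM (0.06 ± 0.58, adjusted p = 0.974).

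Tumor 41 was the highest control and tumor 35 the highest No-Trp tumor in each of these 3 genes, and tumors 40 and 36 were the lowest. The highest tumor exceeded the lowest by 4.31-fold among controls and 4.09-fold on the No-Trp diet for Col3a1, against 1.15-fold and 1.43-fold among livers. Summed over the 11 fibrillar members, the per kb level was 321 ± 201 CPM on the control diet and 405 ± 256 CPM on the No-Trp diet (SD, n = 3).

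**Figure D3:**
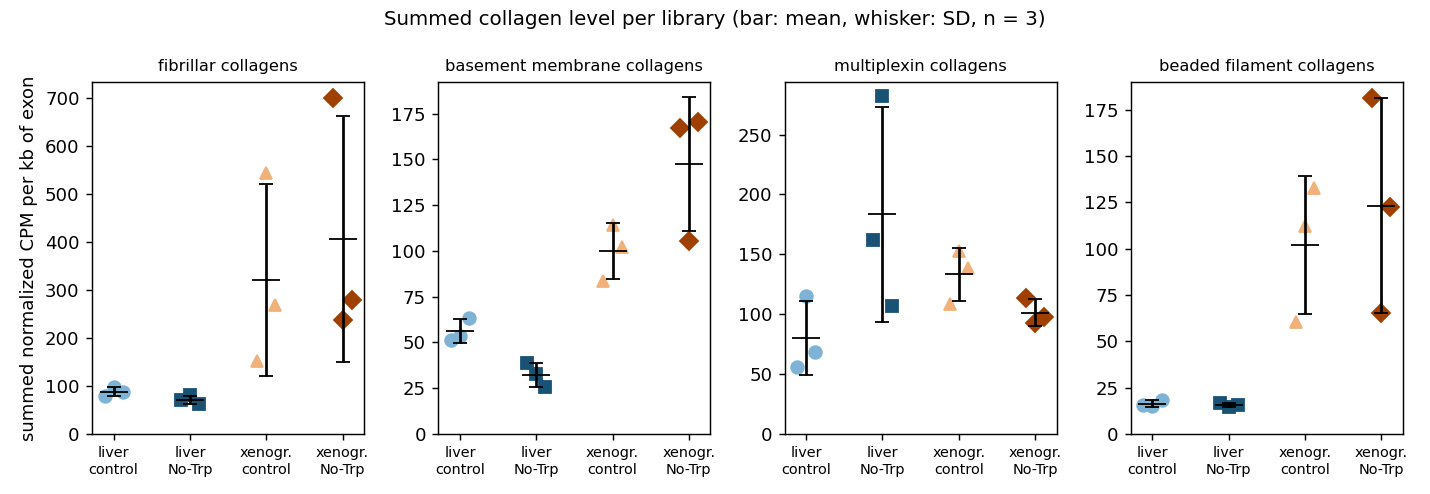
Summed normalized CPM per kb of exon for 4 collagen classes in each library, with the mean (bar) and SD (whisker) of 3 mice and a linear axis from 0. Fibrillar sums lie between 62.5 and 97.1 in livers and between 152 and 700 in xenografts, where the diets overlap.

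The beaded filament chains and the FACIT chains Col12a1 and Col14a1 also varied between tumors of 1 diet. Col6a1 had 181, 307 and 381 CPM in control tumors and 479, 160 and 361 CPM in No-Trp tumors (log2 fold change 0.19 ± 0.43, adjusted p = 0.859). Col6a2 had 94.9, 187 and 218 CPM and then 354, 124 and 195 CPM, and Col6a3 had 93.0, 231 and 233 CPM and then 352, 167 and 197 CPM. Col12a1 had 50.4, 220 and 156 CPM and then 382, 103 and 162 CPM (0.59 ± 0.63, adjusted p = 0.685), and Col14a1 had 7.65, 16.1 and 6.34 CPM and then 26.6, 9.01 and 15.6 CPM (0.75 ± 0.48, adjusted p = 0.472).

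Col4a1 and Col4a2 varied less between tumors than the major fibrillar chains. Col4a1 had 315, 427 and 386 CPM on the control diet and 642, 423 and 631 CPM on the No-Trp diet, where tumor 36 fell just below control tumor 41 (log2 fold change 0.58 ± 0.20, adjusted p = 0.217). Col4a2 had 209, 296 and 268 CPM and then 470, 281 and 477 CPM (0.66 ± 0.24, adjusted p = 0.221). Col4a5 had 47.1, 58.7 and 52.7 CPM and then 50.8, 32.7 and 66.5 CPM, and Col4a6 had 19.0, 23.5 and 8.53 CPM and then 18.5, 8.24 and 29.7 CPM.

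Col4a3 and Col4a4, chains of the kidney and lung type IV network whose genes start 71 bases apart in opposite directions, were both lower in every No-Trp tumor than in any control tumor. Col4a3 stood at 1.57, 3.75 and 4.08 CPM in control tumors and at 0.399, 0.334 and 0.212 CPM in No-Trp tumors, which is 32 to 94 reads against 5 to 11. Its log2 fold change of -3.30 ± 0.55 just missed the threshold (adjusted p = 0.0506), and over 13 alternatives its adjusted p ran from 6.4e-06 to 0.186. Col4a4 had 1.77, 3.39 and 4.20 CPM and then 0.834, 0.867 and 0.509 CPM (-2.08 ± 0.48, adjusted p = 0.102).

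Col7a1 was the collagen whose mean CPM differed most between the diets in tumors, lower on the No-Trp diet. It measured 379, 775 and 1220.2 CPM on the control diet and 330, 270 and 182 CPM on the No-Trp diet (log2 fold change -1.62 ± 0.42, adjusted p = 0.151). The groups did not overlap, but control tumor 40 lay only a little above tumor 35. Without tumor 40 the value was -1.96 and was called (adjusted p = 0.0421). That tumor is the only control not marked as resubmitted, and its log2 ratio to the No-Trp tumors, none of which is marked, was -0.54.

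Col18a1 had 724, 957 and 901 CPM in control tumors and 660, 585 and 645 CPM in No-Trp tumors, a small difference without overlap (log2 fold change -0.46 ± 0.16, adjusted p = 0.208). Col15a1 had 35.6, 102 and 64.5 CPM and then 125, 60.1 and 36.1 CPM (0.11 ± 0.52, adjusted p = 0.94). Col28a1, a beaded-filament-like collagen of peripheral nerve, had 0.196, 0.758 and 0.00 CPM and then 6.93, 2.37 and 2.16 CPM (3.46 ± 0.96, adjusted p = 0.157).

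The members that rose in livers were not called in tumors. Col20a1 had 12.2, 17.7 and 6.58 CPM on the control diet and 10.2, 4.20 and 3.52 CPM on the No-Trp diet, Col13a1 had 3.04, 5.47 and 7.37 CPM and then 5.70, 5.04 and 4.45 CPM, and Col11a2 had 5.64, 12.4 and 3.78 CPM and then 6.97, 3.47 and 3.27 CPM. In all 3 the ranges of the diets overlapped. Col11a1 had 9.12, 15.7 and 13.3 CPM and then 7.8, 1.6 and 7.0 CPM (log2 fold change -1.23 ± 0.54, adjusted p = 0.306).

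Col9a3 had 0.098, 0.439 and 0.366 CPM in control tumors and 1.38, 1.03 and 0.976 CPM in No-Trp tumors, 2 to 11 reads against 23 to 38 (log2 fold change 1.87 ± 0.60, adjusted p = 0.181), while Col9a1 and Col9a2 held at most 11 reads in any tumor. Col8a1 had 22.5, 47.8 and 17.7 CPM and then 30.7, 14.3 and 14.9 CPM, and Col8a2 had 0.196, 1.04 and 0.487 CPM and then 0.363, 0.234 and 0.467 CPM. Col17a1 had 2.06, 2.47 and 20.2 CPM and then 6.31, 2.40 and 4.33 CPM, with the highest value in tumor 43.

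Of the 87 genes listed as acting with collagens, none that could be tested was called between diets in tumors. Markers of other cell types differed. Of 8 adipocyte markers, 5 rose on the No-Trp diet and none fell, with a median log2 fold change of 4.75 and sums of 15.99 to 73.7 CPM in control and 433 to 940 CPM in No-Trp tumors. All 7 skeletal muscle markers had positive log2 fold changes without a call, with sums of 3.43 to 22.3 CPM and 38.4 to 75.3 CPM. Of 5 skin epidermis markers tested, Lor fell by 2.43 (adjusted p = 0.0436). The 6 cartilage markers gave no call, with 2 tested at log2 fold changes of -2.78 and 1.57. Their sums were 90.4 to 189 CPM in control and 330 to 662 CPM in No-Trp tumors. Sums of the 12 fibroblast and myofibroblast markers were 220 to 361 CPM and 221 to 436 CPM. The part of host tissue in the collagen values of tumors was not tested.

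The difference between the 2 diet effects was tested as an interaction over all 12 libraries, as the effect in xenografts minus that in livers. With the sign kept, 3 of 36 members (8.33%) had a higher log2 fold change in xenografts and 6 (16.7%) a lower one, against 6.7% and 6.01% of 15472 genes. The higher ones were Col4a1 (1.65 ± 0.31, adjusted p = 0.00985), Col4a2 (1.16 ± 0.33, adjusted p = 0.0351) and Col9a3 (2.80 ± 0.81, adjusted p = 0.0375). Both type IV chains had lower means in No-Trp livers and higher means in No-Trp tumors than in their controls.

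Lower log2 fold changes in xenografts were found for Col20a1 (-4.13 ± 0.71, adjusted p = 0.0078), Col13a1 (-2.91 ± 0.51, adjusted p = 0.00819), Col11a2 (-3.22 ± 0.70, adjusted p = 0.0148), Col4a3 (-3.93 ± 0.80, adjusted p = 0.0117), Col18a1 (-1.68 ± 0.48, adjusted p = 0.0358) and Col7a1 (-2.08 ± 0.61, adjusted p = 0.0413). Lower refers to the sign and not the size, as for Col7a1, at -1.62 in xenografts and 0.49 in livers. Col4a1, Col4a3, Col11a2, Col13a1 and Col20a1 were called when any 1 of the 12 libraries was left out. For Col4a3 this says little about livers, which held 3 to 12 reads each, too few for the liver test. It entered this fit through the control tumors, with 32 to 94 reads each. With at least 10 counts required in every library it was not tested. Scaling by library totals put the median of all genes at 0.408 in this contrast, from 0.034, and lost Col18a1 and Col7a1. With resubmission as a covariate Col4a2 (1.06, adjusted p = 0.0718) and Col7a1 (-1.28, adjusted p = 0.0513) were lost, with RLE factors Col4a2, and with no filter on low counts Col7a1 and Col9a3. Col4a2 was called in 5, Col18a1 in 4 and Col7a1 and Col9a3 in 2 of the 12 fits. For no fibrillar member other than Col11a2 did the effects differ past the thresholds.

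**Figure D4:**
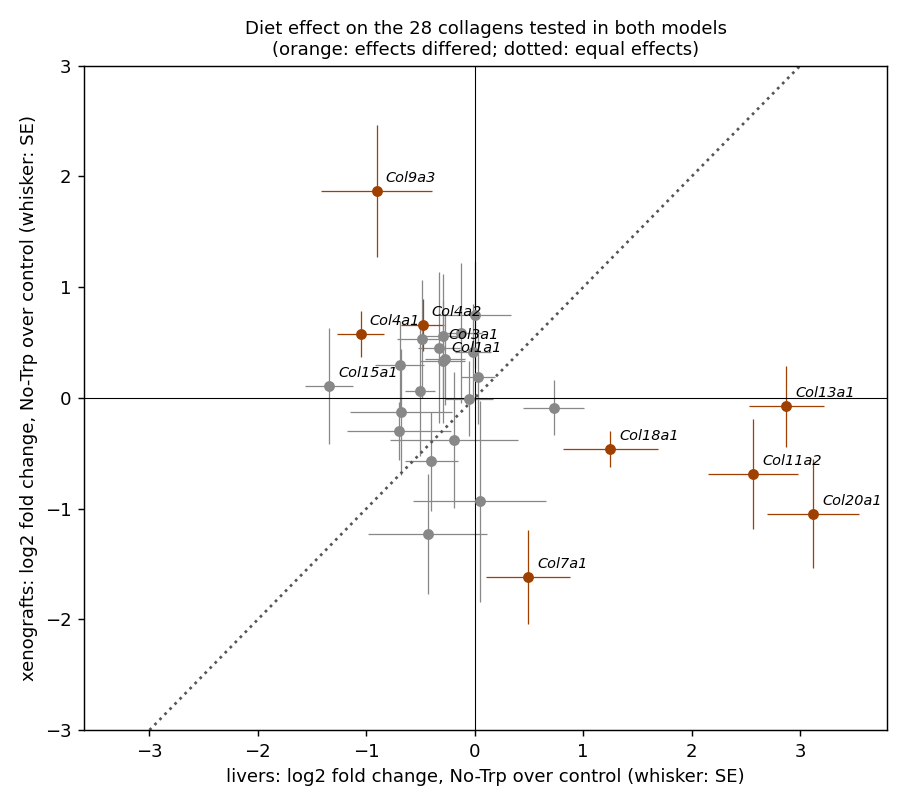
Log2 fold change of No-Trp over control in livers (horizontal) and xenografts (vertical) for the 28 collagens tested in both, with SE as whiskers. Members whose effects differed between the models, in orange, lie away from the dotted line of equal effects, with Col20a1, Col13a1, Col11a2, Col18a1 and Col7a1 to its right and Col4a1, Col4a2 and Col9a3 to its left.

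The last comparison set xenografts against livers on the same diet. On the control diet 25 of 36 members (69.4%) were higher in xenografts than in livers and 1 (2.78%) was lower, against 23.3% higher and 20.2% lower over 15472 genes. The 36 include 8 members with too few reads for the test in livers, which entered this fit through the xenografts. With at least 10 counts in every library, 18 of 24 members were higher and 1 lower, against 2557 and 2240 of 12101 genes. The median log2 fold change was 2.09 over the collagens and 0.015 over all genes. Model is tied here to strain, site, cell source and, where the hosts were female, sex, whose parts cannot be told apart.

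By class, 9 of 10 fibrillar, 4 of 6 basement membrane, 3 of 5 beaded filament, 3 of 5 FACIT, 1 of 2 multiplexin, 1 of 2 network, 2 of 3 transmembrane and 2 of 3 anchoring or unclassified members tested were higher. Medians of the log2 fold change were 2.00 for fibrillar, 3.55 for basement membrane, 1.93 for beaded filament and 2.14 for FACIT members. The 3.55 and the basement membrane calls rest largely on Col4a3, Col4a4 and Col4a6. These had too few reads for the test in livers and passed the filter through the xenografts. Summed over the class, the level was 56.1 ± 6.50 CPM per kb in control livers and 99.9 ± 15.5 in control xenografts (SD, n = 3). Of the major fibrillar chains, Col1a1 was higher by 1.86 ± 0.47 (adjusted p = 0.00487), Col1a2 by 2.05 ± 0.48 (adjusted p = 0.00298) and Col3a1 by 1.64 ± 0.56 (adjusted p = 0.0238) on the log2 scale. Col3a1 was not called without liver 101 (1.59, adjusted p = 0.0657), liver 103 (1.64, adjusted p = 0.0587) or tumor 41 (0.86, adjusted p = 0.157), nor with resubmission as a covariate (1.48, adjusted p = 0.0703).

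The gene with the largest fold was Col7a1, at 84.0-fold (log2 fold change 6.39 ± 0.53, adjusted p = 1.3e-06). It went from 9.40 ± 4.10 CPM in control livers to 792 ± 421 CPM in control tumors, and ranked 4 per kb among the collagens of those tumors. Col4a6 was higher by 34.7-fold (5.12 ± 0.57, adjusted p = 1.08e-05) and its partner Col4a5 by 21.5-fold (4.42 ± 0.28, adjusted p = 1.03e-07), with 2.45 ± 0.262 CPM in control livers and 52.8 ± 5.78 CPM in control tumors. The common chains moved less, with 0.55 ± 0.22 for Col4a1 (adjusted p = 0.0438) and 0.87 ± 0.23 for Col4a2 (adjusted p = 0.00678), both under the fold threshold.

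Col14a1 alone was called lower, by 5.68-fold, in control tumors (log2 fold change -2.51 ± 0.47, adjusted p = 0.000771), and with resubmission as a covariate Col9a3 was called lower too (-1.68, adjusted p = 0.0303). Means were 57.3 ± 25.1 CPM in control livers and 10.03 ± 5.31 CPM in control tumors. Col18a1 did not pass the test (0.65 ± 0.34, adjusted p = 0.112). Col20a1 was higher in control tumors by 2.86 ± 0.53 (adjusted p = 0.000557) and Col13a1 by 1.43 ± 0.37 (adjusted p = 0.00513).

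On the No-Trp diet 25 of 36 members (69.4%) were again higher in xenografts and 5 (13.9%) were lower, against 24.5% and 19.1% of all genes. Those lower were Col14a1 (-1.73 ± 0.46, adjusted p = 0.00653), Col11a2 (-2.76 ± 0.51, adjusted p = 0.000588), Col13a1 (-1.48 ± 0.36, adjusted p = 0.00342), Col20a1 (-1.26 ± 0.49, adjusted p = 0.0403) and Col18a1 (-1.02 ± 0.34, adjusted p = 0.0202). With library totals, which put the median of all genes at 0.678, from 0.147, Col13a1 (-0.89), Col18a1 (-0.43) and Col20a1 (-0.69) were no longer called. Col20a1 was also lost with resubmission as a covariate (-1.29, adjusted p = 0.0549) and without liver 107, liver 108, tumor 36 or tumor 37 (-1.21 to -1.0, adjusted p from 0.0846 to 0.134). Without liver 107 Col18a1 stood at -0.6 (adjusted p = 0.103) and without tumor 36 at -0.97 (adjusted p = 0.0616). Col4a1 and Col4a2 were now 4.63-fold and 4.08-fold higher in tumors (adjusted p = 5.35e-06 and 1.71e-05). Col7a1 was 19.9-fold higher (4.31 ± 0.49, adjusted p = 1.42e-05).

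**Figure D5:**
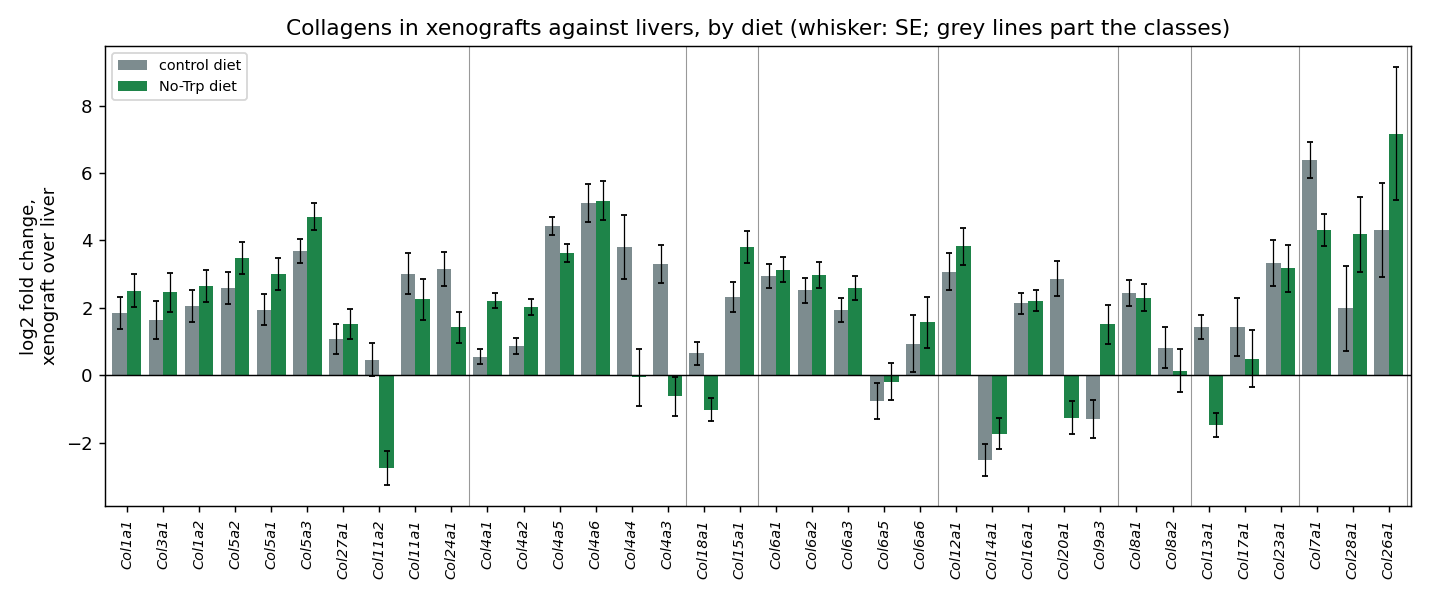
Log2 fold change of xenografts over livers for 36 collagens on the control diet (grey) and the No-Trp diet (green), with SE as whiskers and vertical lines between classes. Most bars point up on both diets. Col14a1 and, without a call, Col6a5 point down on both, and Col4a3, Col4a4, Col9a3, Col11a2, Col13a1, Col18a1 and Col20a1 change direction between diets.

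Markers beside this contrast differed too. Sums of the 12 fibroblast and myofibroblast markers were 67.7 to 102 CPM in control livers and 220 to 361 CPM in control tumors, where 5 were called higher and 1 lower. Those of the 12 endothelial markers were 174 to 288 CPM and 104 to 209 CPM, with 1 higher and 3 lower. Of 12 stellate cell markers 2 were higher and 5 lower, although their sums were 94.2 to 166 CPM and 695 to 740 CPM. The 7 cholangiocyte markers summed to 112 to 177 CPM in control livers and 3913 to 10803 CPM in control tumors, with Spp1 and Krt19 at the top. Of these 7, 4 were called higher in control tumors and 1 lower. All these calls stand against 23.3% higher and 20.2% lower over all genes. Their part in the collagen values was not tested.

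Of the 44 members, 8 had too few reads for the tests given above. Col2a1, Col6a4, Col9a1, Col9a2, Col10a1, Col19a1, Col22a1 and Col25a1 summed to between 6 and 79 reads over the 12 libraries, with at most 39 in 1 library. A further 8 were tested in xenografts but had too few reads in livers, namely Col4a3, Col4a4, Col4a6, Col6a6, Col8a2, Col24a1, Col26a1 and Col28a1. Of these, Col4a6, Col24a1 and Col26a1 were called higher in xenografts than in livers on both diets. Their reads per liver were 6 to 12, 3 to 9 and 0 to 1. They entered that fit only through xenograft reads, so the filter itself favored this direction.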

How the data were processed

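PolyA RNA of 12 mice was sequenced, 1 library per mouse. The authors trimmed reads with Trim Galore, aligned them to mm10 with STAR 2.7.2b, used SAMtools 1.9 and deposited counts per gene from HTSeq, as methods and submitters' processing notes state. Strand setting and rule for overlapping genes were not given in the sources used here. Reads left out by that counting (24.7% to 39.4%) stayed out of library sizes.

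The 2 diets were tested in livers and in xenografts separately, using quasi-likelihood tests of edgeR 4.0.16 under R 4.3.3 (TMM, filterByExpr, robust glmQLFit), and the interaction and the models in 1 fit over 12 libraries. P-values were adjusted over all genes by Benjamini-Hochberg. Calls needed both an adjusted p of 0.05 or less and a log2 fold change of 1 or more in size. A standard error is the log2 fold change over the square root of F. Coordinates and exon lengths came from GENCODE M21 (94.5% of symbols matched, 3.8% by an older symbol), promoters from RefSeq on GRCm38.p6, with 38 windows matching 35 members. Alternatives were DESeq2 1.42.0, RLE factors, library totals, other filters, resubmission as a covariate, Rn45s left out, no fold threshold, 1 fit over all libraries and leaving out each library.

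Members and gene lists were chosen with earlier results of these data known. Values in each library are given for the 2 members of each class with the highest level per length, members called between diets or in the interaction, and their partner chains. From other lists, up to 2 abundant genes and 2 with the largest called change were eligible. Mia3, Lamc1, and members outside the rule that are named in counts were named after their values were seen. No replicate pair agreed within sampling noise (chi-square over degrees of freedom from 34.6 to 274). Each library is 1 mouse, and litters are not given. On simulated counts with 200 changed genes (log2 of 1.5 or 2), the tests called 73.5% of them among 14122 liver genes, 74% among 14704 xenograft genes and 29.5% for the interaction among 15472. Of those calls 5.16%, 5.73% and 1.67%, in that order, fell on unchanged genes. Every simulated gene had the same spread between mice, 31.6%. The major fibrillar chains spread more in control tumors, as Col3a1 did at 907 ± 672 CPM (SD, n = 3). For them these shares do not show what the tests could find.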

Additional observations from a re-analysis of the deposited data

Results flagged for a closer look

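Diet effects of 9 collagens differed between the models by the interaction test, given as the log2 effect in xenografts minus that in livers. The difference was 1.65 for Col4a1, 1.16 for Col4a2 and 2.8 for Col9a3. It was -4.13 for Col20a1, -2.91 for Col13a1, -3.22 for Col11a2, -3.93 for Col4a3, -1.68 for Col18a1 and -2.08 for Col7a1. In livers the corresponding effects were -1.05, -0.48 and -0.90 for the first 3, and 3.12, 2.87, 2.56, untested, 1.25 and 0.49 for the others in that order.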

How the results depend on the processing

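In livers 5 were called, and 0 to 6 when a library was left out: 0 without control 103 and 3 without control 101. In xenografts none was called, and 0 to 2 when a library was left out, with 2 without control 40. There, 1 (Col4a3, lower) was called with RLE factors, with no filter on low counts, with Rn45s left out and with 1 fit over all libraries, and 4 with DESeq2. In the interaction 9 were called, and 5 to 8 when a library was left out, with 5 without liver control 103, liver No-Trp 107, xenograft No-Trp 35 or 37, or xenograft control 43. Between models, the 26 calls for the control diet ranged over 19 to 28 and the 30 calls for No-Trp over 22 to 30, and over 23 to 26 and 25 to 30 when a library was left out, with the lowest, 19 and 22, among genes with at least 10 counts in every library. Single members were followed through the alternatives for part of the printed values only. In the xenograft diet comparison these were Col4a1, Col4a2, Col4a3, Col4a4, Col7a1 and Col28a1. The signs of Col1a1, Col1a2, Col3a1 and the other members there were not followed. No log2 fold change of a single member that was followed reversed sign. Medians in xenografts did when 1 library was left out, from 0.18 to between -0.46 and 0.66 for fibrillar, from 0.02 to between -0.35 and 0.32 for basement membrane and from 0.08 to between -0.25 and 0.33 for all collagens. Scaling by library totals changed calls over all genes in the interaction from 1036 higher and 930 lower to 1825 and 437, and between models on the No-Trp diet from 3796 and 2959 to 5797 and 2024. Resubmission as a covariate, which leaves tumor 40 as the only control to compare with No-Trp tumors, moved Col7a1 in xenografts from -1.62 to -0.55. No paired analysis was possible because the groups share no replicate numbers. Depth limits low members such as Col9a3, with 2 to 38 reads per library. Over all genes tested, the spread between mice was 31.6% in livers and 28.7% in xenografts by edgeR's common dispersion. The summed fibrillar collagens spread more in tumors. Their highest library exceeded the lowest by 3.57-fold on the control and 2.95-fold on the No-Trp diet, against 1.23-fold and 1.28-fold in livers.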
